A study of Arabidopsis thaliana with 5 samples.

Results

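The table of gene levels from purified *Arabidopsis thaliana* endosperm nuclei was read for 10 genes of auxin synthesis, chosen by name and matched by their gene identifiers. They were *TAA1*, *TAR1* and *TAR2* of the tryptophan aminotransferase family, and *YUC1*, *YUC2*, *YUC4*, *YUC6*, *YUC9*, *YUC10* and *YUC11* of the *YUCCA* (*YUC*) family. All 10 were found among the 33602 genes of the table. Endosperm nuclei had been purified at 4 days after pollination (DAP) by INTACT, in which a nuclear envelope tag is biotinylated in chosen cells and pulled down, and their polyadenylated RNA was sequenced. The tag (*PHE1::NTF*) and the biotin ligase (*PHE1::BirA*) were driven by the promoter of *PHE1*, an endosperm gene, in a Col line called INT. In Col × L*er* (2 libraries), male sterile *dde2* mothers of the Col accession that carried INT were pollinated with wild-type L*er*. In L*er* × Col (3 libraries), male sterile *pistillata* (*pi-1*) mothers of L*er* were pollinated with the INT line. The transgenes therefore came from the mother in the first cross and from the father in the second, and the direction of the cross, the sterility mutation and the parent giving the tag cannot be told apart. Siliques were pooled for each library, no cross without the tag was analysed here, and reads of both parental alleles were added up, so the values do not show the parent of origin.

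Auxin (indole-3-acetic acid, IAA) is made in plants mainly in a pair of enzymatic steps. TAA1 and its relatives TAR1 and TAR2 convert tryptophan to indole-3-pyruvic acid, and the YUC flavin monooxygenases convert that to IAA. In seeds, auxin made in the fertilized central cell and endosperm is known for its part in endosperm proliferation and in the start of seed coat growth, and *YUC10* and *TAR1* are known as endosperm-expressed members of their families.

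The members resemble each other, so for *TAA1*, *YUC6*, *YUC9* and *YUC10* the longest run of identical coding bases found with another member is shown, or for *YUC9* also with any *YUC* gene, to set the likeness beside the length of a read. The 3 *TAA1*/*TAR* genes shared 61.1% to 74.9% of their coding bases in pairwise alignments, and the 21 pairs among the 7 *YUC* genes shared 56.9% to 70.1%. Over all 11 *YUC* genes of the plant the highest value was 80.5%, for *YUC9* and *YUC5*. The longest run was 36 bases for *TAA1* and *TAR1*, 42 for *YUC9* and *YUC5*, 26 for *YUC6* and *YUC9*, and 20 for *YUC10*, with *YUC4*, against reads of 125 bases. Each run stands in capitals between its flanking coding bases, written 5′ to 3′ along the coding strand of the TAIR10.1 assembly (RefSeq).
*TAA1*, exon on chr1:26606503-26606598, plus strand: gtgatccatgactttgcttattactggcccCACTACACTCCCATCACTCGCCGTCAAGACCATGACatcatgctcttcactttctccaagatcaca
*TAR1*, exon on chr1:8274267-8274362, minus strand: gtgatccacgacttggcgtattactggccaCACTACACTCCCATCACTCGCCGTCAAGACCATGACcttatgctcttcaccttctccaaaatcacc
*YUC9*, exon on chr1:1105761-1105862, plus strand: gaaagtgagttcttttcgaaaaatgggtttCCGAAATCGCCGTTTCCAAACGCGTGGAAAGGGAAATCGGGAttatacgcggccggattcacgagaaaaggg
*YUC5*, exon on chr5:17648983-17649084, minus strand: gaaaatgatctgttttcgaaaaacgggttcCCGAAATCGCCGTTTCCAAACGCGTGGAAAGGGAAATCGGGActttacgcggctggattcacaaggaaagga
*YUC6*, exon on chr5:8937572-8937657, minus strand: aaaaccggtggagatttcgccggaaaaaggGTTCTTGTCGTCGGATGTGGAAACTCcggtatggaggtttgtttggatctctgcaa
*YUC9*, exon on chr1:1105166-1105251, plus strand: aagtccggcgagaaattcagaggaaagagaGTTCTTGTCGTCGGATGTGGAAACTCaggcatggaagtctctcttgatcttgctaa
*YUC4*, exon on chr5:3612762-3612841, minus strand: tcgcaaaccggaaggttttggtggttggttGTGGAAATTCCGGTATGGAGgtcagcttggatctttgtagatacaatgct
*YUC10*, exon on chr1:18092183-18092262, plus strand: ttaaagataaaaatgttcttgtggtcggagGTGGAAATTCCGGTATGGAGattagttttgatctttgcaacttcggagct
The *YUC6* and *YUC9* stretch and the *YUC4* and *YUC10* stretch both encode the glycine-rich turn that binds NADPH in YUC proteins, while the *YUC9* and *YUC5* stretch lies nearer the end of the coding sequence. How the authors' counting treated reads that fit more than 1 gene is not given in the sources used here.

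The 5 libraries were far from alike, and every level given here is to be read beside this. Values were RPKM (reads per kilobase of gene, scaled to mapped read totals), and depth, read from the steps between low tRNA gene values, ranged from 12563500 to 28588250 reads. In L*er* × Col replicate 1, 97.4% of protein-coding genes reached 1 RPKM, against 58.9% to 83.4% in the others, and only 647 genes were listed at 0. Zeros were common in the replicate 2 libraries, with 12393 genes at 0 in the Col × L*er* one and 10800 in the L*er* × Col one. A few of the endosperm markers (2 and 3 of 12) were also at 0 in these replicate 2 libraries. Among them were *AGL36* and *AGL90*, which stayed at 2.69 RPKM or less in all 5. The mean log2 level of the 12 was 3.47 and 2.89 there, against 3.80 to 4.16 in the other 3. Their summed level was instead highest there, at 684.8 and 881.5 RPKM against 431.1 to 575.4 RPKM. *ZOU*, the highest of them, was at 532 and 777 RPKM there, against 190 to 386 RPKM in the other 3. *PHE1*, whose promoter drives the tag, lay between 29.7 and 51.0 RPKM in all 5. The 13 seed coat markers summed to 136 to 365 RPKM and the 6 embryo markers to 26.4 to 137 RPKM, and both lists likewise had a lower mean log2 level in the replicate 2 libraries than in the other 3. The study's methods state that the first replicates were prepared from more silique tissue than the later ones, and that the first replicates of both crosses were left out of the downstream analyses because of their estimated contamination. By its name, L*er* × Col replicate 1 is a first replicate. The methods also describe merging 3 libraries of that cross afterwards, so whether this library was left out is not clear. Its values are therefore given apart, and results that rest on it are given without it as well. The part of these library differences in the levels below was not tested, and in bulk nuclei fewer cells of a type and less RNA per cell cannot be told apart.

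*TAA1* (AT1G70560, chr1:26604855-26607652, plus strand), the main aminotransferase gene of the plant, was read at 10.9 and 14.5 RPKM in Col × L*er* replicates 2 and 3, and at 28.5, 0.704 and 4.66 RPKM in L*er* × Col replicates 1, 2 and 3. The means were 12.7 ± 2.54 RPKM (SD, n = 2) in Col × L*er* and 11.3 ± 15.1 RPKM (SD, n = 3) in L*er* × Col. Both Col × L*er* libraries lay above L*er* × Col replicates 2 and 3 and below replicate 1, so the crosses overlapped. *TAA1* stood higher than 66.9% and 64.4% of protein-coding genes in the Col × L*er* libraries, and higher than 85.3%, 36.8% and 44.3% in the 3 L*er* × Col libraries. The lowest value, in L*er* × Col replicate 2, amounted to only 17 to 22 reads by coding or exon length.

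*TAR1* (AT1G23320, chr1:8273423-8275350, minus strand), its nearest relative here, was read at 2.94 and 9.15 RPKM in Col × L*er* and at 9.32, 2.07 and 9.22 RPKM in L*er* × Col. These values fell at 2 levels, low in the replicate 2 library of each cross and close to 9 RPKM in the other 3 libraries. The means of the crosses were 6.04 ± 4.39 RPKM (SD, n = 2) and 6.87 ± 4.16 RPKM (SD, n = 3). *TAR2* (AT4G24670, chr4:12727531-12731331, minus strand) was read at 0.187 and 0.729 RPKM in Col × L*er*, and at 9.47, 0 and 2.31 RPKM in L*er* × Col. It passed 1 RPKM in only 2 libraries, both of L*er* × Col, and the third library of that cross listed it at 0.

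The gene that supplied most of the RNA for the first step differed between libraries. *TAA1* gave 77.7% and 59.4% of the summed *TAA1*/*TAR* RPKM in Col × L*er*, and 60.3%, 25.4% and 28.8% in L*er* × Col. *TAR1* gave 21.0% and 37.5% in Col × L*er*, and 19.7%, 74.6% and 57.0% in L*er* × Col. Thus *TAA1* led in both Col × L*er* libraries and in L*er* × Col replicate 1, and *TAR1* led in L*er* × Col replicates 2 and 3. The *TAR1* share averaged 29.3% ± 11.7 in Col × L*er* (SD, n = 2) and 50.4% ± 28.0 in L*er* × Col (SD, n = 3), a difference of −21.2 percentage points that did not pass an exact permutation test over libraries (two-sided p = 0.5). It was −36.5 points without L*er* × Col replicate 1 and −9.07 points without L*er* × Col replicate 2. With 2 libraries against 3, the smallest p this test can give is 0.1.

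*YUC10* (AT1G48910, chr1:18091681-18093878, plus strand), a 383-residue YUC enzyme, had nearly the same RPKM in every library. It was read at 5.54 and 6.56 RPKM in Col × L*er*, and at 5.74, 7.26 and 7.57 RPKM in L*er* × Col. The mean over the 5 libraries was 6.53 ± 0.900 RPKM (SD, n = 5), a coefficient of variation of 13.8%. By cross the means were 6.05 ± 0.723 (SD, n = 2) and 6.86 ± 0.982 RPKM (SD, n = 3), and the values overlapped. Estimated reads by coding or exon length ranged from 80 to 87 in Col × L*er* replicate 2 up to 249 to 272 in L*er* × Col replicate 3. The steady RPKM meant a shifting place among other genes, since *YUC10* stood above 54.4% and 47.2% of protein-coding genes in Col × L*er*, and above 25.6%, 75.9% and 52.1% in L*er* × Col.

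How steady *YUC10* looked depended on the scale. Its SD over the libraries was 0.17 on the log2(RPKM + 1) scale, and of the 2366 protein-coding genes whose mean lay within 0.25 of its own, 3 had a smaller SD, the median being 0.92. After the libraries were scaled to a common upper quartile, *YUC10* was at 6.22 and 5.15 in Col × L*er*, and at 4.64, 19.3 and 6.19 in L*er* × Col. Its SD was then 0.75, and 65.6% of genes of like level had a smaller one. After quantile normalization the SD was 1.11, with 77.3% smaller. On the authors' RPKM, leaving out any 1 library gave an SD of 0.15 to 0.20. Both rescalings, chosen after the values had been seen, put *YUC10* highest in L*er* × Col replicate 2, where every other member but *YUC1* had its lowest or shared lowest RPKM.

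**Figure D1:**
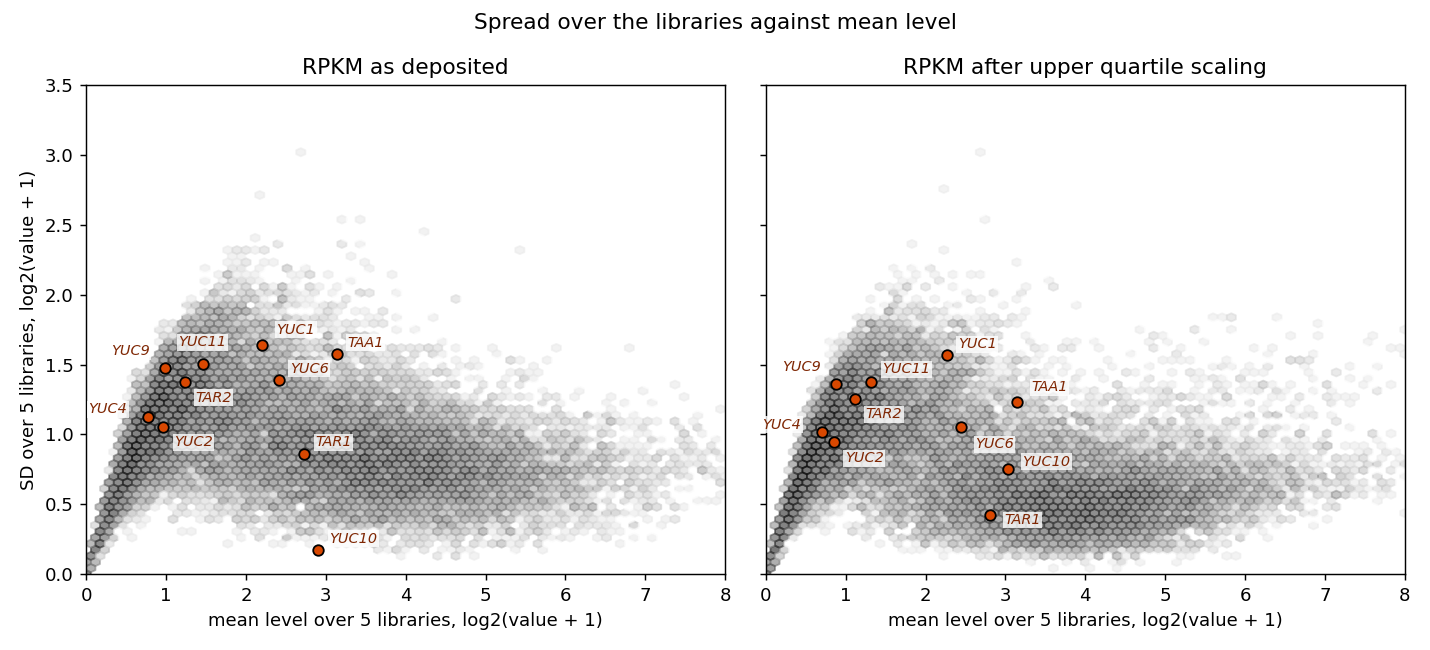
SD over the 5 libraries (y axis, log2 units) against mean level (x axis, log2 of value plus 1, shown up to 8) for protein-coding genes, as grey density cells that darken with the number of genes on a log scale, and for the 10 auxin synthesis genes as orange points, on the deposited RPKM (left) and after upper quartile scaling (right). *YUC10* lies below nearly all genes of its level on the left, with an SD of 0.17, and inside the cloud on the right, with 0.75.

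The other 6 *YUC* genes varied more than *YUC10* on both scales, with SDs of 1.06 to 1.64 on log2(RPKM + 1) and of 0.94 to 1.57 after upper quartile scaling. After that scaling *TAR1*, not *YUC10*, had the smallest SD of all members, at 0.42, and 18.9% of genes of like level had a smaller one. *YUC6* (AT5G25620, chr5:8934941-8938768, minus strand) was read at 1.48 and 6.98 RPKM in Col × L*er*, and at 20.4, 0.933 and 4.23 RPKM in L*er* × Col. *YUC1* (AT4G32540, chr4:15700829-15703000, plus strand) was read at 0 and 6.08 RPKM in Col × L*er*, and at 21.6, 2.51 and 2.62 RPKM in L*er* × Col. Both stood above every other *YUC* gene in L*er* × Col replicate 1, and the crosses overlapped for both. *YUC11* (AT1G21430, chr1:7500845-7502186, plus strand) was listed at 0 in the replicate 2 library of each cross, at 2.72 RPKM in Col × L*er* replicate 3, and at 10.8 and 2.65 RPKM in L*er* × Col replicates 1 and 3. Its replicate 3 values were thus almost equal between the crosses.

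*YUC2*, *YUC4* and *YUC9* were the low members. *YUC2* (AT4G13260, chr4:7721487-7724070, minus strand) was read at 0.0865 and 1.67 RPKM in Col × L*er*, and at 4.90, 0 and 0.646 RPKM in L*er* × Col. *YUC4* (AT5G11320, chr5:3611247-3613640, minus strand) was read at 0.255 and 0.699 RPKM in Col × L*er*, and at 5.57, 0 and 0.0449 RPKM in L*er* × Col. *YUC9* (AT1G04180, chr1:1104493-1106241, plus strand) was read at 0 and 0.920 RPKM in Col × L*er*, and at 10.5, 0 and 0.360 RPKM in L*er* × Col. Without L*er* × Col replicate 1, *YUC4* and *YUC9* stayed below 1 RPKM in every library. Both therefore fell out of the test between crosses, which took genes with at least 1 RPKM in at least 2 libraries, and 8 of the 10 members entered it.

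**Figure D2:**
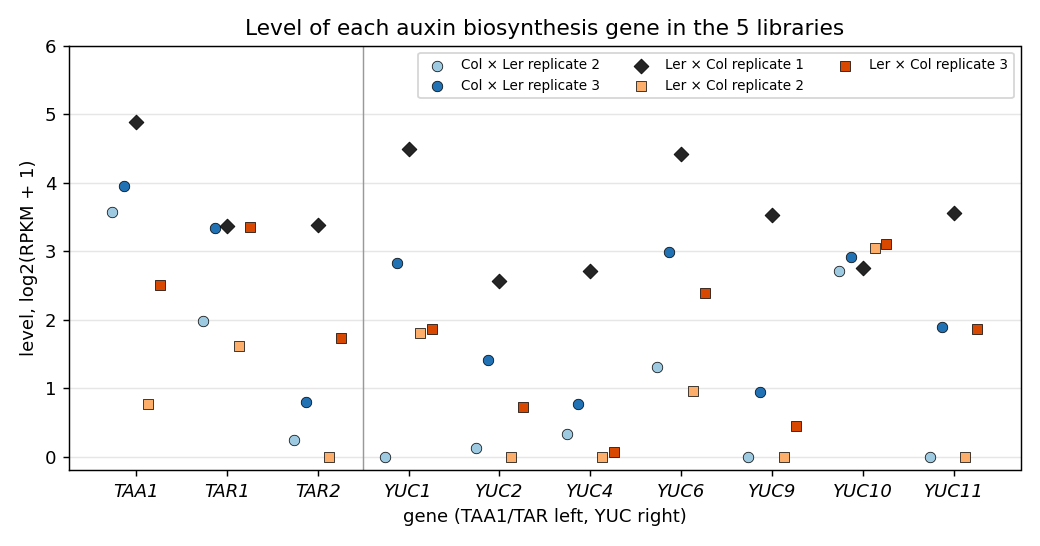
Level of each of the 10 genes (x axis, *TAA1*/*TAR* left of the line and *YUC* right of it) as log2(RPKM + 1) (y axis), with 1 point per library. The black diamonds of L*er* × Col replicate 1 lie highest for 9 of the 10 genes, and the 5 points of *YUC10* lie close together.

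L*er* × Col replicate 1 was the highest library for 9 of the 10 members, *YUC10* being the exception, and for 46.9% of the 25579 genes tested. *YUC4* and *YUC9*, included in the member counts here and below, were not among the genes tested. Of the 8 members tested, 7 were highest in that library. The level there was 1.97 times the next highest library for *TAA1*, 1.01 times for *TAR1* and 0.758 times for *YUC10*. For the other 7 the ratio ran from 2.92 for *YUC6* to 11.4 for *YUC9*. The median ratio was 3.24 over the members and 0.911 over all genes tested. Among the 4 libraries without it, Col × L*er* replicate 3 was highest for 7 of the 10 members, and for 48.6% of the genes, and L*er* × Col replicate 3 for the other 3. Under upper quartile scaling, replicate 1 was highest for 8 of the 10 members and for 40.3% of genes tested. The 6 embryo markers also had their highest mean log2 level in that library, at 3.94 against 1.22 to 2.65. Their summed level was not highest there, at 109 RPKM against 26.4 to 137 RPKM in the others. *WOX8*, the embryo marker with the highest mean, was at 24.2 RPKM there against 23.6 to 119 RPKM. The seed coat markers had their highest mean log2 level there too, at 4.09 against 2.01 to 4.03, but the endosperm markers did not. Among 271 protein-coding genes listed at 0 in the other 4 libraries, the median there was 1.04 RPKM. The part of these differences in the members' levels was not tested.

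Within both crosses, all 10 members were higher in replicate 3 than in replicate 2, as were 69.5% of the genes tested. On the upper quartile scale this held for 7 of the 10 members and for 39.3% of the genes. Both replicate 2 libraries lay below the other 3 for 7 of the 10 members and for 50.0% of the genes, and on the upper quartile scale for 6 of the 10 and for 26.0%. The number of members at 1 RPKM or more was 4 and 7 in Col × L*er* replicates 2 and 3, and 10, 3 and 7 in L*er* × Col replicates 1, 2 and 3. A gene listed at 0 is not shown to be silent.

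The 4 *YUC* genes outside the set were low in most libraries too. *YUC3* was read at 1.15 and 2.94 RPKM in Col × L*er*, and at 10.1, 1.47 and 1.65 RPKM in L*er* × Col. *YUC5*, *YUC7* and *YUC8* were listed at 0 in Col × L*er* replicate 2 and reached 2.88, 6.19 and 4.42 RPKM in L*er* × Col replicate 1. That library was highest for 4 of the 4. In the other 4 libraries *YUC5* and *YUC7* stayed below 1 RPKM, and *YUC8* passed it once, at 1.41 RPKM in Col × L*er* replicate 3. In L*er* × Col replicate 1, *YUC3* and *YUC7* stood above *YUC10*, and *YUC5* and *YUC8* below it.

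Added up over the 7 members, *YUC* RNA came to 7.35 and 25.6 RPKM in Col × L*er*, and to 79.5, 10.7 and 18.1 RPKM in L*er* × Col. Over all 11 *YUC* genes it came to 8.50 and 31.6 RPKM in Col × L*er*, and to 103, 12.4 and 20.5 RPKM in L*er* × Col. *YUC10* made up 75.3% and 25.6% of the sum over the 7 members in Col × L*er*, and 7.22%, 67.9% and 41.8% in L*er* × Col. With *YUC10* itself near 6.5 RPKM throughout, its share fell where the other 6 were high. It was the highest *YUC* gene in 3 libraries, the replicate 2 library of each cross and L*er* × Col replicate 3, while *YUC6* led in Col × L*er* replicate 3 and *YUC1* in L*er* × Col replicate 1. With all 11 *YUC* genes in the sum, the *YUC10* share was 65.1% and 20.8% in Col × L*er*, and 5.57%, 58.6% and 37.0% in L*er* × Col. These shares are ratios within a library and do not move with a common scaling factor.

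The summed *TAA1*/*TAR* level was 14.0 and 24.4 RPKM in Col × L*er*, and 47.3, 2.77 and 16.2 RPKM in L*er* × Col. The ratio of the summed *YUC* to the summed *TAA1*/*TAR* level was 0.525 and 1.05 in Col × L*er*, and 1.68, 3.86 and 1.12 in L*er* × Col. The highest ratio was in L*er* × Col replicate 2, where *TAA1* was at its lowest and *YUC10* was above its mean. The replicate 3 libraries of the crosses had nearly the same ratio.

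**Figure D3:**
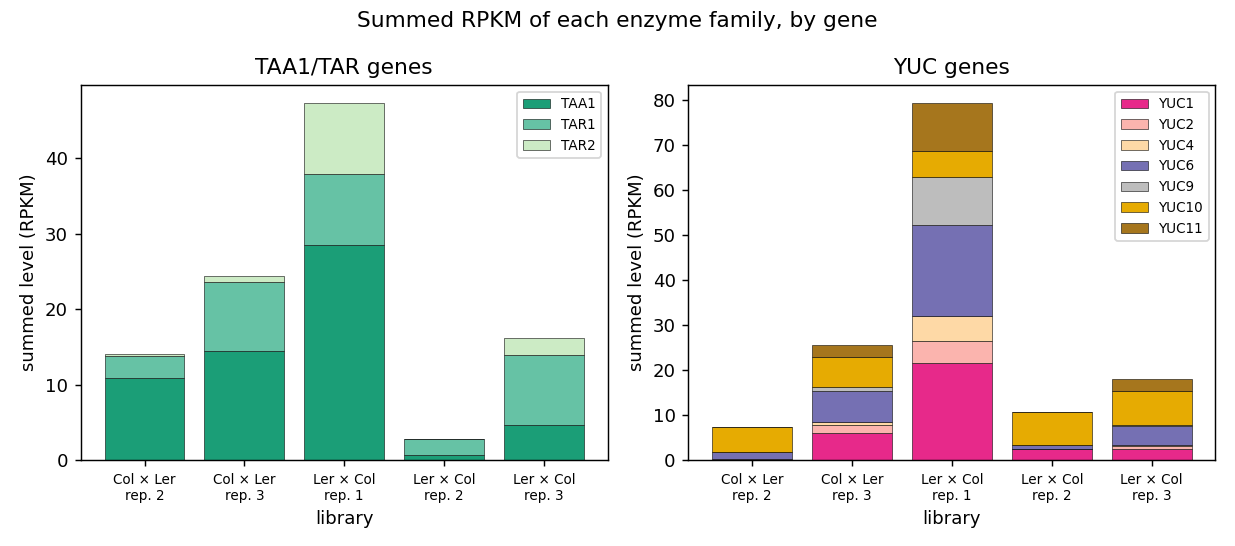
Summed RPKM (y axis) of the 3 *TAA1*/*TAR* genes (left) and the 7 *YUC* genes (right) in each library (x axis), with each gene as a coloured segment. The *YUC10* segment keeps nearly its height while its share runs from 7.22% in L*er* × Col replicate 1 to 75.3% in Col × L*er* replicate 2.

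Neither step was shown to differ between the crosses, in a test whose smallest possible p was 0.1. On the log2(summed RPKM + 1) scale, the *TAA1*/*TAR* sum was 4.29 ± 0.54 in Col × L*er* (SD, n = 2) and 3.87 ± 1.85 in L*er* × Col (SD, n = 3), a difference of 0.42 (exact permutation test, two-sided p = 0.9). On the same scale the *YUC* sum was 3.90 ± 1.18 and 4.71 ± 1.45, a difference of −0.81 (exact permutation p = 0.6). The *YUC10* share averaged 50.4% ± 35.1 and 39.0% ± 30.4, a difference of 11.5 percentage points (exact permutation p = 0.7), which turned to −4.38 points without L*er* × Col replicate 1 and to −13.4 points without Col × L*er* replicate 2. The *TAA1*/*TAR* difference likewise turned to −0.56 without L*er* × Col replicate 2 and was 1.28 without L*er* × Col replicate 1. The *YUC* difference was 0.02 without Col × L*er* replicate 2 and −0.0049 without L*er* × Col replicate 1.

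Gene by gene, 0 of the 8 members tested passed an adjusted p of 0.05 in limma, and 0 had an unadjusted p under 0.05. Over all 25579 genes tested, 2 passed (0.00782%) and 266 had an unadjusted p under 0.05. None of the 10 members had crosses whose values did not overlap, against 8.09% of the genes tested. On the log2(RPKM + 1) scale the change, Col × L*er* over L*er* × Col, was 1.04 for *TAA1* (SE 1.07, 95% interval −1.06 to 3.15). It was −0.15 for *YUC10* (SE 1.13, interval −2.37 to 2.06), where the error is that of the trend over all genes of its level, since limma put no weight on a gene's own spread in these data. Its own libraries alone would give an SE of 0.16, beside 1.55 for *TAA1*. Leaving out L*er* × Col replicate 1 moved the *TAA1* value to 2.13, and leaving out L*er* × Col replicate 2 moved it to 0.07. The most negative value was −1.31 for *YUC1* (SE 1.28), followed by −1.19 for *TAR2* (SE 1.28), and the median of the 8 was −0.38, beside 0.10 over all genes. *YUC1*, listed at 0 in 1 library, went to −2.77 with a pseudocount of 0.1, and to 0.10 without Col × L*er* replicate 2. Every adjusted p among them was 0.99997 in limma, and these intervals leave room for differences of several fold in either direction.

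**Figure D4:**
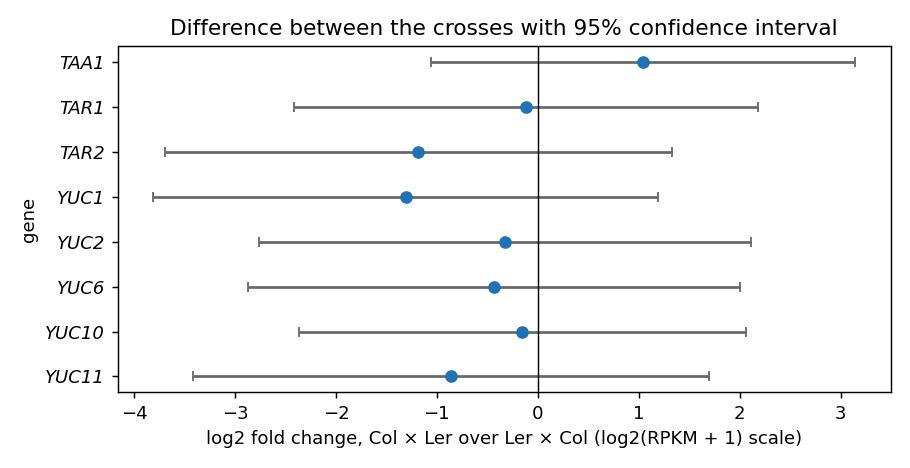
Change between the crosses (x axis, log2 fold change of Col × L*er* over L*er* × Col on the log2(RPKM + 1) scale) for the 8 members tested (y axis), with points for the limma estimates and bars for their 95% confidence intervals. Every bar crosses 0, from *YUC1* at −1.31 to *TAA1* at 1.04.

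Nor could the members be put in a firm order of level. By mean log2(RPKM + 1), which is per length and so can be set side by side, *TAA1* (3.14) stood before *TAR1* (2.73) and *TAR2* (1.23). Among the *YUC* genes the order was *YUC10* (2.91), *YUC6* (2.41), *YUC1* (2.20), *YUC11* (1.46), *YUC9* (0.98), *YUC2* (0.96) and *YUC4* (0.77). Of the 8 pairs of neighbours, 0 kept the same order in all 5 libraries, and exact sign-flip permutation tests gave p of 0.125 to 1, and no p under 0.05 is possible with 5 libraries. The clearest step was *TAR1* over *TAR2*, by 1.50 ± 0.94 (SD, n = 5) and in 4 of 5 libraries (exact permutation p = 0.125). Without L*er* × Col replicate 1 it was the 1 pair with the same order in every library. *YUC10* was above *YUC6* in 3 of 5 libraries, by 0.49 on average (exact permutation p = 0.5), and by 1.03 without L*er* × Col replicate 1 (exact permutation p = 0.25 with 4 libraries).

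The rest of the auxin pathway was read from 7 gene lists with 59 genes besides the members, of which 53 were tested between the crosses. Of these 53, 0 passed in limma and 0 had an unadjusted p under 0.05, with 27 estimates higher and 26 lower in Col × L*er* and a median log2 change of 0.01. Over all genes tested, 54.8% of estimates were higher in Col × L*er*, and the list counts below are to be read beside that share. L*er* × Col replicate 1 was highest for 38 of the 59. The lists differed in how they varied over the libraries.

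Upstream, the 8 genes of tryptophan synthesis, which make the substrate of TAA1, were present in all 5 libraries, and none was listed at 0. They summed to 80.1 and 108 RPKM in Col × L*er*, and to 110, 27.7 and 132 RPKM in L*er* × Col. *ASB1*, a subunit of anthranilate synthase, was read at 13.6 and 20.9 RPKM in Col × L*er*, and at 28.9, 5.19 and 22.9 RPKM in L*er* × Col. *TSA1*, the alpha subunit of tryptophan synthase, was read at 13.1 and 22.4 RPKM in Col × L*er*, and at 11.3, 6.53 and 25.5 RPKM in L*er* × Col. Low values in L*er* × Col replicate 2 were common to both, whereas L*er* × Col replicate 1 was high for *ASB1* only. All 8 estimates were higher in Col × L*er*, with a median log2 change of 0.25. Each of the 8 genes had its lowest value in L*er* × Col replicate 2, and the count was not taken without that library.

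Among genes proposed for other routes to IAA, the nitrilase gene *NIT1* was read at 33.3 and 83.4 RPKM in Col × L*er*, and at 45.8, 29.2 and 73.3 RPKM in L*er* × Col. *AMI1*, an amidase gene, was read at 68.0 and 51.9 RPKM in Col × L*er*, and at 20.9, 28.0 and 49.8 RPKM in L*er* × Col. Per length, both were above every member in 4 of 5 libraries, and *NIT1* also in L*er* × Col replicate 1. *CYP79B2*, whose product makes indole-3-acetaldoxime, was listed at 0 in both replicate 2 libraries.

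*VAS1*, an aminotransferase gene whose product returns indole-3-pyruvic acid to tryptophan and so acts against TAA1, was the highest gene of all 7 lists. It was read at 185 and 130 RPKM in Col × L*er*, and at 102, 102 and 157 RPKM in L*er* × Col. In every library this was above the sum of the 3 *TAA1*/*TAR* genes. *GH3.5*, whose product joins IAA to amino acids, behaved like most *YUC* genes, with 0.781 and 6.53 RPKM in Col × L*er*, and 38.8, 0.460 and 3.71 RPKM in L*er* × Col. The 9 genes of IAA removal gave 4 higher and 5 lower estimates in Col × L*er*, with a median log2 change of −0.65.

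The 16 transport genes summed to 38.1 and 70.7 RPKM in Col × L*er*, and to 235, 22.9 and 61.1 RPKM in L*er* × Col. *ABCB1*, an auxin efflux carrier gene, was read at 3.39 and 9.33 RPKM in Col × L*er*, and at 25.9, 2.00 and 14.5 RPKM in L*er* × Col. *AUX1*, the influx carrier gene, was read at 12.5 and 7.24 RPKM in Col × L*er*, and at 19.1, 6.71 and 9.55 RPKM in L*er* × Col. The high sum in L*er* × Col replicate 1 had its counterpart in most *YUC* genes. Of the 14 tested, 2 estimates were higher and 12 lower in Col × L*er*, with a median log2 change of −0.20.

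The sum of the 6 receptor genes was steadier, at 81.3 and 80.2 RPKM in Col × L*er*, and at 76.2, 24.5 and 79.9 RPKM in L*er* × Col. This did not hold for each gene, since *AFB2* ran from 5.55 to 22.0 RPKM and *AFB4* from 2.71 to 10.6 RPKM over the libraries. *TIR1* was read at 17.6 and 17.4 RPKM in Col × L*er*, and at 16.9, 4.14 and 17.7 RPKM in L*er* × Col. *AFB5* was read at 23.4 and 23.7 RPKM in Col × L*er*, and at 19.5, 8.50 and 24.7 RPKM in L*er* × Col. On the deposited RPKM, both were level over 4 libraries and low in L*er* × Col replicate 2, unlike *YUC10*, which was not low there. The median over protein-coding genes was also lowest in that library, at 1.81 RPKM against 4.17 to 10.95 RPKM in the others. All 6 estimates were higher in Col × L*er* (median log2 change 0.42). Each of the 6 receptor genes had its lowest value in L*er* × Col replicate 2, and this count too was not taken without that library.

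The early response was read from 9 *Aux/IAA* genes, which encode repressors that auxin induces within a short time. *IAA2* was read at 6.01 and 36.8 RPKM in Col × L*er*, and at 17.6, 10.5 and 17.1 RPKM in L*er* × Col. *IAA6* was read at 0.385 and 26.8 RPKM in Col × L*er*, and at 11.7, 17.9 and 9.0 RPKM in L*er* × Col. Both were highest in Col × L*er* replicate 3 and lowest in Col × L*er* replicate 2, an order that none of the 10 members had. Most of the list ran otherwise. *IAA1*, *IAA5*, *IAA14*, *IAA19* and *IAA29* were highest in L*er* × Col replicate 1, as most members were, and *IAA3* and *IAA4* in a Col × L*er* library. *IAA5*, *IAA19* and *IAA29* were listed at 0 in both replicate 2 libraries. Of the 8 tested, 3 estimates were higher and 5 lower in Col × L*er*, with a median log2 change of −0.42.

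The genes whose pattern over the 5 libraries was most like that of the leading member of each family were found by the root mean square difference of mean-centred log2(RPKM + 1). For *TAA1*, among 9965 tested genes with a mean within 1 log2 unit, they were the tRNA gene AT1G69000 (0.12), *COPT1* (AT5G59030, 0.13) and *SK9* (AT3G21850, 0.13). For *YUC10*, among 10107 genes, they were *CCMH* (AT1G15220, 0.11), AT2G24830 (0.12) and *PYL7* (AT4G01026, 0.13). *CCMH* was read at 3.80 and 6.02 RPKM in Col × L*er*, and at 4.60, 5.90 and 6.29 RPKM in L*er* × Col. With 5 libraries and the scale dependence given for *YUC10*, this likeness describes these libraries only.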

How the data were processed

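Total gene levels of 5 endosperm libraries (2 Col × L*er*, 3 L*er* × Col) were taken from 1 deposited table, in which the authors gave RPKM per gene. Reads were 125 bases, paired-end, and the submitters' processing notes name TopHat2 2.1 and TAIR10. The counter, its gene lengths and its handling of reads that map to several places were not given in the sources used here. Replicate numbers follow the column names, and replicates were stated to be biological. Differences between crosses were tested with limma 3.58.1 (R 4.3.3, moderated with a variance trend, whose prior took all the weight) on log2(RPKM + 1) for genes at 1 RPKM or more in at least 2 libraries, with Benjamini-Hochberg adjustment over 25579 genes and a threshold of 0.05, and sums, shares and neighbours with exact permutation tests (Python 3.11.15, SciPy 1.17.1, NumPy 2.4.6, pandas 2.3.3). Depth rests on steps of tRNA gene values (96.8% to 98% whole within 0.05 of a read, for genes under 20 reads). The limma script was tested on simulated data, where recovery of planted changes was required only at a spread smaller than that of these data. Coordinates and sequences were read from RefSeq TAIR10.1, whose annotation matched 32835 of the table's identifiers. The text names all 10 members, the 4 other *YUC* genes and the 2 highest genes of each other list. It also names the 3 genes most like the leading member of each family. A few genes at 0, of markers, of receptors or of the early response were chosen after their values were seen. The members and lists were chosen with earlier results of these data known. Alternatives were pseudocounts of 0.1 and 0.5, other filters on low values, quantile and upper quartile scaling, fits blocked by replicate number or without the variance trend, and each library left out in turn.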

Additional observations from a re-analysis of the deposited data

How the results depend on the processing

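In limma, 0 of the members and 0 of the other pathway genes that entered a fit passed an adjusted p of 0.05 under any alternative run. The members entering ranged from 2, with 1 RPKM in every library, to 10 without a filter, beside 8 in the main fit. Over all genes, the 2 calls became 7 and 6 with pseudocounts of 0.1 and 0.5, 6 without a filter, 6 with 1 RPKM in every library, 0 with quantile normalization (476 at an unadjusted p under 0.05), 0 with no variance trend (171) and 0 to 86 with 1 library left out. Without Col × L*er* replicate 2 or L*er* × Col replicate 1 there were 0 calls (92 and 199 at an unadjusted p under 0.05), without Col × L*er* replicate 3 there were 8, without L*er* × Col replicate 2 there were 21 and without L*er* × Col replicate 3 there were 86. Where a single Col × L*er* library was left, it was assumed to vary like the L*er* × Col ones.

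The labels do not say that equal replicate numbers mark a shared batch, and only 2 numbers were shared, so the numbers were not taken as pairs. With the replicate block, calls over all genes rose from 2 to 86, the lowest member p was 0.00587 for *TAA1* (adjusted p = 0.427 in limma), log2 changes were 2.13 for *TAA1* and −0.34 for *TAR2*, and they turned to 0.18 for *TAR1*, 0.41 for *YUC2*, 0.48 for *YUC6* and 0.013 for *YUC11*. The share differences were −4.38 points for *YUC10* and −36.5 for *TAR1* under this block, and *TAR1* was at 0.17 with a block by the numbers in the titles. Number 1 of the column names and number 3 of the titles occur only in L*er* × Col. That library therefore had no part in the estimates under the block. The estimates equalled those with it left out, wherever a gene was tested both ways. Across 25579 genes, deviations of same-numbered libraries correlated at 0.44 (replicate 2) and 0.025 (replicate 3), and the replicate 3 minus 2 differences of the crosses at 0.29.

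Quantile normalization turned the log2 change to 0.23 for *YUC2* and 0.011 for *YUC10*, with the median of all genes at 0.02 against 0.10. With 1 library left out, log2 changes ranged from −0.80 to 0.56 for *TAR1*, −2.72 to 0.10 for *YUC1* and −1.28 to 0.48 for *YUC6*. They ranged from −1.81 to 0.085 for *YUC11* and from 0.070 to 2.13 for *TAA1*. *TAR2* ran from −2.04 to −0.91, but it was not tested without L*er* × Col replicate 1 or 3. *YUC2* ran from −0.87 to 0.32, but it was not tested without L*er* × Col replicate 1 or Col × L*er* replicate 3. In the replicate block, where L*er* × Col replicate 1 had no part in the estimates, *TAR2* was at −0.34 and *YUC2* at 0.41. With a pseudocount of 0.1, log2 changes were −2.77 for *YUC1* and −1.44 for *YUC11*. Likewise the summed *TAA1*/*TAR* difference ranged from −0.56 to 1.28, the summed *YUC* difference from −1.65 to 0.022, the *YUC10* share difference from −13.4 to 36.3 points, the *TAR1* share difference from −36.5 to −9.07 points, and the pairs in a fixed order from 0 to 1. The cause of these changes was not tested. The SD of *YUC10* was 0.75 after upper quartile scaling and 1.11 after quantile normalization, against 0.17.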
